A study of Mus musculus with 6 samples.

Results

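The prostaglandin genes examined here are 10 symbols of prostaglandin synthesis, reception and breakdown: the cyclooxygenases PTGS1 and PTGS2, the terminal synthases PTGES, PTGES2, PTGES3, PTGDS and PTGIS, the receptors PTGER2 and PTGER4, and the degrading enzyme HPGD. The set was chosen from measured values, because PTGS2 and PTGDS are among the largest differences of the series and lie in opposite directions, so the values of S127A against WT are given for the members as a description, with no test. Of the 10 symbols 9 have a row among the 14915 of the table, and HPGD is not analysed here. The libraries are RNA-seq of B16F10, a mouse melanoma line. In S127A cells (genotype ZBTB5-S127A) the transcription factor ZBTB5 carries alanine in place of a serine that can be phosphorylated, and WT cells are the control, with 3 libraries of each. Cells of both genotypes were treated with TNFα, an inflammatory cytokine, while amino acids were limited, so no value here is a response to TNFα. Whether the S127A line is 1 clone, and whether the replicates are separate cultures, is not given in the sources used here, and each p-value therefore reflects only how far these libraries scatter, which could be technical scatter. Levels are in TPM, which correct for gene length and library total, and each ± is the SD over the 3 libraries of a group. A difference is that of the mean log2(TPM + 1), taken as S127A minus WT, a scale on which changes of low genes come out too small.

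The genotypes differed across most of the transcriptome, and the melanocyte markers stood high in only 1 group. Of the 12 melanocyte markers, 6 averaged at least 1 TPM in S127A and 12 in WT. All 12 melanocyte markers were below the WT range in the S127A libraries, where they summed to 115 to 123 TPM, against 19271 to 19452 TPM in WT. GPNMB made up most of that S127A sum, at 88.0 ± 1.85 TPM in S127A and 3335 ± 83.1 TPM in WT. None of the 12 was at 0 in all libraries of a group. PMEL, the melanosome fibril protein, stood at 4.44 ± 0.29 TPM in S127A and 3103 ± 34.5 TPM in WT. Fibroblast markers (10 of 10 listed) summed to 301 to 313 TPM in S127A and 16.2 to 17.2 TPM in WT, with 7 above and 2 below the WT range. COL1A2 made up most of the S127A sum, at 275 ± 6.56 TPM in S127A and 1.41 ± 0.164 TPM in WT, while POSTN stood at 0.0667 ± 0.0231 TPM in S127A and 7.79 ± 0.912 TPM in WT. LUM and THY1 were at 0 in the 3 S127A libraries, while DCN was at 0 in the 3 WT libraries. Immune cell markers (9 of 12 listed) summed to 49.0 to 53.3 TPM in S127A, nearly all of it CD14, and 8.20 to 9.04 TPM in WT, and PTPRC, the pan-leukocyte marker, stood at 0.0567 ± 0.0404 TPM in S127A and 0.03 ± 0.0361 TPM in WT. Mast cell markers (6 of 9 listed), which matter here because mast cells make prostaglandin D, summed to 15.7 to 17 TPM in S127A and 2.02 to 2.68 TPM in WT, mostly GATA2, and the chymase CMA1 was at 0 in all 6 libraries. Endothelial or epithelial markers (9 of 10 listed) summed to 63.7 to 64.1 TPM in S127A and 1.37 to 1.76 TPM in WT, of which KRT18 was at 62.8 ± 0.362 TPM in S127A. Mesothelial markers (6 of 6 listed) summed to 376 to 399.5 TPM in S127A and 0.15 to 1.28 TPM in WT, nearly all of it MSLN. The edited gene ZBTB5 was at 9.24, 8.24 and 9.21 TPM in S127A and 15.88, 14.86 and 15.68 TPM in WT, and TPM does not show the substitution. The part of this shift in markers in any value below was not tested. In bulk RNA, fewer cells of a type and less RNA per cell cannot be told apart.

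Prostaglandins are lipid signals made from arachidonic acid. A phospholipase frees the acid from membranes, a cyclooxygenase turns it into the unstable intermediate prostaglandin H2, and a terminal synthase turns that into prostaglandin E2, D2 or prostacyclin. PTGS1 is the cyclooxygenase of steady production in many tissues, while PTGS2 is the form that inflammatory cytokines such as TNFα induce, often together with the microsomal synthase PTGES. Prostaglandin E2 then acts on the receptors PTGER2 and PTGER4, which raise cAMP, and is broken down after uptake into cells by HPGD.

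Both cyclooxygenases stood far higher in S127A. PTGS2 (ENSMUSG00000032487.8, chromosome 1, 150100031 to 150108227, plus strand, mm10) was at 445.54, 427.18 and 444.72 TPM in the S127A libraries, against 0.21, 0.24 and 0.11 TPM in the WT libraries. The 3 S127A values lay close together and the groups did not overlap. The log2 difference was 8.54 (SE 0.0541), the 6th largest on the high side among 10348 genes tested. PTGS1 (ENSMUSG00000047250.13, chromosome 2, 36230426 to 36252272, plus strand) was at 109.12, 110.37 and 107.77 TPM in S127A, against 1.86, 1.91 and 2.10 TPM in WT. Its groups did not overlap either, at a log2 difference of 5.22 (SE 0.0515). The 2 means stand in a ratio of 55.8. Both genes were thus read in every WT library, PTGS1 at a low level and PTGS2 below 0.25 TPM.

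The balance of the isozymes also differed within libraries. PTGS2 made up 80.3%, 79.5% and 80.5% of the summed TPM of the cyclooxygenases in the S127A libraries, against 10.1%, 11.2% and 4.98% in the WT libraries. Both genes together held 548 ± 9.32 TPM in S127A and 2.14 ± 0.0702 TPM in WT. The WT shares rest on a PTGS2 level of 0.187 ± 0.0681 TPM and are uncertain for that reason. A transcript model antisense to PTGS1 (Gm43621) overlaps its locus in the GENCODE annotation, and since the strand setting of the libraries is not given in the sources used here, its reads could not be told apart from those of PTGS1.

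The PTGS2 sequences are shown because no other member stood as far above WT, and because both its promoter and its AU-rich 3′ UTR are classic sites of its control. The promoter window covers 250 bases before to 50 bases after the start (RefSeq, GRCm38.p6, chr1:150099781-150100080, plus strand). Capitals mark matches on either strand to a small set of motifs. These were the TATA box, spelled TATAAA, and the cAMP response element, spelled TGACGTCA. They also held the AP-1 element, spelled TGANTCA with any base at N, and the C/EBP element, spelled TTGCNNAA. Further motifs were the GC box, spelled GGGCGG, the EGR element, spelled GCGGGGGC, and the SOX element, spelled ACAAAG. The E-box that MITF binds, spelled CATGTG, the palindromic E-box, spelled CACGTG, and the NF-kB consensus completed the set. The core of the cAMP response element, TGACG, was counted but not put in capitals.
PTGS2: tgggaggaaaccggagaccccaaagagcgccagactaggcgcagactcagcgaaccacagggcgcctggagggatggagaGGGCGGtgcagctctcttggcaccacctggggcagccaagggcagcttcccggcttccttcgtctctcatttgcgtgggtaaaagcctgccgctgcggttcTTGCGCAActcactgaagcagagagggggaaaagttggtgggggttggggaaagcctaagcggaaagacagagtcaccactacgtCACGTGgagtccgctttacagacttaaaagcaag
The window held a C/EBP match from −69 to −62, a GC box from −170 to −165 and a palindromic E-box from 17 to 22, besides 1 cAMP response element core. Of 32851 promoter windows 10.8% held a C/EBP match, 35.7% a GC box and 7.15% a palindromic E-box, and 20.8% such a core. These matches describe letters, not bound sites. The 3′ UTR of PTGS2 is known for AU-rich elements, repeats of the ATTTA pentamer (T standing for U) at which proteins stabilise or destroy the mRNA. The GENCODE 3′ UTR of 2445 bases held 14 ATTTA pentamers. Of 19921 genes with a 3′ UTR of at least 100 bases, 3.13% held as many or more, a share not corrected for UTR length. The densest stretch of 30 bases in the PTGS2 UTR, positions 12 to 41 with the pentamers in capitals, held 4 of them.
PTGS2 AU-rich stretch: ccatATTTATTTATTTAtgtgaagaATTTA
The 3′ UTRs of PTGER2 and PTGER4 held 6 and 5 ATTTA pentamers, and those of PTGES2, PTGES3 and HPGD held 4 each. Per kilobase PTGS2 had 5.73, HPGD 4.77 and PTGER4 4.06. The 3′ UTRs of PTGS1, PTGES, PTGIS and PTGDS held 0, and that of PTGDS is only 162 bases long.

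**Figure D1:**
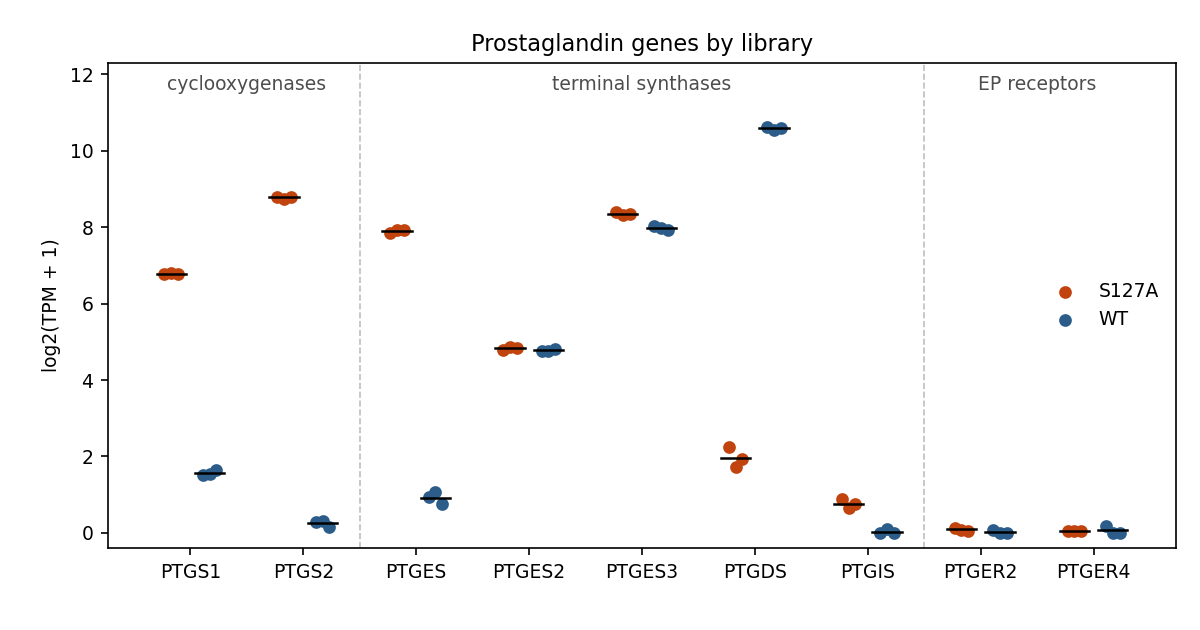
TPM of the 9 listed members in each library, as log2(TPM + 1), with S127A libraries in orange at the left and WT libraries in blue at the right of each gene; points are libraries and black lines are group means. PTGS1, PTGS2 and PTGES lie high in S127A and near the floor in WT, PTGDS lies the other way, PTGES2 overlaps, and the receptors lie near 0 in both groups.

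Among the synthases of prostaglandin E2, only 1 differed widely. PTGES, the inducible microsomal enzyme that works beside PTGS2 (ENSMUSG00000050737.13, chromosome 2, 30889471 to 30929863, minus strand), was at 230.91, 241.60 and 243.00 TPM in S127A, against 0.92, 1.11 and 0.68 TPM in WT. The groups did not overlap, the log2 difference was 6.98 (SE 0.0758), and the means stand in a ratio of 264. PTGES2, a membrane-associated synthase (ENSMUSG00000026820.5, chromosome 2, 32395896 to 32405772, plus strand), was at 26.47, 28.22 and 27.53 TPM in S127A and 26.33, 26.21 and 27.30 TPM in WT. Its groups overlapped, and the log2 difference of 0.04 was smaller than its limma SE of 0.0449. With other scalings of the libraries the PTGES2 difference was 0.09 to 0.13 and the groups separated. PTGES3, the cytosolic synthase that is also the HSP90 co-chaperone p23 (ENSMUSG00000071072.12, chromosome 10, 128058954 to 128077272, plus strand), was at 333.59, 318.47 and 327.16 TPM in S127A and 261.95, 251.09 and 242.34 TPM in WT. These groups did not overlap, but the log2 difference was only 0.37 (SE 0.0347). The median over all tested genes was −0.116, and relative to it PTGES2 stood 0.16 and PTGES3 0.49 higher. PTGES3 has an annotated processed pseudogene (Ptges3-ps, chromosome 6), and reads that match both could shift the PTGES3 value. A processed pseudogene named Gm13400 lies within the PTGES locus, on the same strand. Which gene Gm13400 derives from was not examined, and its part in the PTGES value was not tested.

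The PTGES promoter is printed as the partner of that of PTGS2 (RefSeq, GRCm38.p6, chr2:30903248-30903547, minus strand), with capitals as above.
PTGES: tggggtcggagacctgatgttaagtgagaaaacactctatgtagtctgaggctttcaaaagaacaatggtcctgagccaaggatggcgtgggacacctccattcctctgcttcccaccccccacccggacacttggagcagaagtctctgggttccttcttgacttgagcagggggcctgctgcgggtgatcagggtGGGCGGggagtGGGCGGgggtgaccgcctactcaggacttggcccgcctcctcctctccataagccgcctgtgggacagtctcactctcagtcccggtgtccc
It held 2 GC boxes, from −53 to −48 and from −42 to −37, and no match to the other motifs. This window lies inside the GENCODE span of PTGES, whose 5′ end on the minus strand is at 30929863. No window at that end was searched. The windows of PTGS2 and PTGES had a GC content of 59.3% and 60.0%, against a median of 52.7% over all windows, and that of PTGS1, at 50.7%, held no match to any motif searched. None of these 3 genes, which all stood high in S127A, carried a TATA box match, which only 13.6% of all windows held. No motif of the set was found in all 3 windows.

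PTGDS, the lipocalin-type synthase of prostaglandin D2 that is also secreted as a carrier of small lipophilic molecules, was the opposite pole. PTGDS (ENSMUSG00000015090.13, chromosome 2, 25466709 to 25470046, minus strand) was at 3.77, 2.33 and 2.80 TPM in S127A, against 1588.28, 1506.00 and 1548.93 TPM in WT. The groups did not overlap, and the log2 difference was −8.62 (SE 0.101), the 6th largest on the low side of 10348. The WT mean was 522 times the S127A mean and stood 75th of all 14915 symbols in WT, against 9006th in S127A. The low side was not at 0: PTGDS was read in every S127A library. Melanocytes express this gene, and the melanocyte markers given above were low in the same libraries. HPGDS, the unrelated haematopoietic synthase of the same prostaglandin and not a member, fell to 0.113 ± 0.0702 TPM in S127A, against 8.76 ± 0.61 TPM in WT (log2 change −3.13, SE 0.0818, adjusted p = 2.35e-11 by limma). Transcripts of both synthases of prostaglandin D2 were thus low in S127A.

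The PTGDS promoter is shown because it is the member that stood low where PTGS2 and PTGES stood high (RefSeq, GRCm38.p6, chr2:25469700-25469999, minus strand).
PTGDS: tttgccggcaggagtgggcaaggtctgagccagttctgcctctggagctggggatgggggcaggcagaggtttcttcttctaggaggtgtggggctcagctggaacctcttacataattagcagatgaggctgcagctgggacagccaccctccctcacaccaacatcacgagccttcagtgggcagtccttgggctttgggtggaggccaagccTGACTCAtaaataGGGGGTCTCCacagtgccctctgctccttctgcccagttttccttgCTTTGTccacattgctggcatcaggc
It held an AP-1 match from −35 to −29, an NF-kB consensus match from −22 to −13 and a SOX match from 25 to 30, which 7.81%, 8.46% and 18.7% of all windows also held. At a GC content of 57.7%, the window held 2 CpG dinucleotides. The PTGS2, PTGES and PTGS1 windows held 16, 10 and 6, and the median over all windows was 7. The PTGDS window held no E-box of MITF, and that says only that these letters are not in this window.

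**Figure D2:**
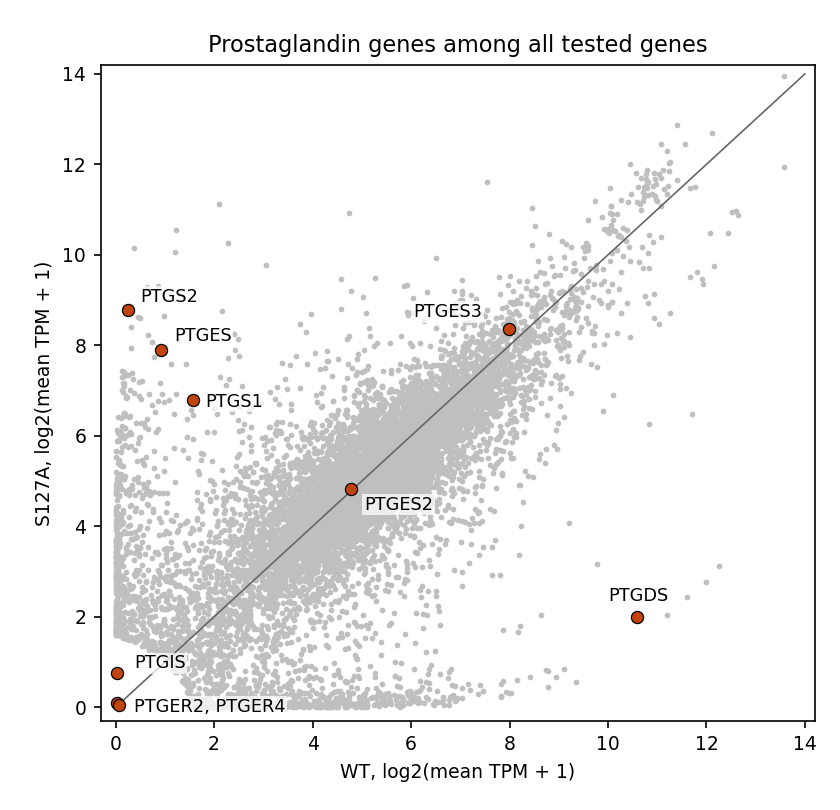
Mean TPM of each of 10348 tested genes, as log2(mean TPM + 1), with WT on the horizontal and S127A on the vertical axis; the line marks equal levels and the 9 listed members are the outlined points, of which PTGIS, PTGER2 and PTGER4 average under 1 TPM and were left out of the fit. PTGS2, PTGES and PTGS1 lie at the upper left and PTGDS at the lower right, while PTGES2 and PTGES3 lie near the line.

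Prostacyclin synthase and the receptors were at the floor. PTGIS, the cytochrome P450 that makes prostacyclin (ENSMUSG00000017969.13, chromosome 2, 167191805 to 167240604, minus strand), was at 0.85, 0.56 and 0.70 TPM in S127A, against 0, 0.07 and 0 TPM in WT. The groups did not overlap, at levels under 1 TPM. PTGER2 (ENSMUSG00000037759.6, chromosome 14, 44988195 to 45003820, plus strand) was at 0.10, 0.06 and 0.03 TPM in S127A and 0.06, 0 and 0 TPM in WT. PTGER4 (ENSMUSG00000039942.15, chromosome 15, 5206661 to 5244187, minus strand) was at 0.04 TPM in each S127A library and at 0.14, 0 and 0 TPM in WT. Both receptors overlapped between the groups, and no difference was detectable at these levels. The loci of PTGIS, PTGER2 and PTGER4 each overlap a gene on the other strand, among them the protein-coding Ttc33 at PTGER4, so even these low levels are uncertain. TPM keeps no depth, so no upper limit could be set on a 0.

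Of the 9 listed members, 5 lay above and 1 below the WT range without overlap, and 3 overlapped. Over all 14915 symbols 72.3% did not overlap between the groups, and since this contrast chose the set nothing is read from the count. In S127A the order of the means ran PTGS2 (439 TPM), PTGES3 (326 TPM), PTGES (239 TPM), PTGS1 (109 TPM), PTGES2 (27.4 TPM), PTGDS (2.97 TPM), PTGIS (0.703 TPM), PTGER2 (0.0633 TPM) and PTGER4 (0.04 TPM), and of neighbours only PTGER2 and PTGER4 overlapped in range. In WT it ran PTGDS (1548 TPM), PTGES3 (252 TPM), PTGES2 (26.6 TPM), PTGS1 (1.96 TPM), PTGES (0.903 TPM), PTGS2 (0.187 TPM), PTGER4 (0.0467 TPM), PTGIS (0.0233 TPM) and PTGER2 (0.02 TPM), and each neighbouring pair from PTGS2 downward overlapped. Replicates of the high members agreed closely, with a coefficient of variation in S127A of 1.19% for PTGS1, 2.36% for PTGS2 and 2.77% for PTGES, and in WT of 2.66% for PTGDS.

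A different gene led the terminal synthases in each group. Leaving out PTGES3, whose transcript also serves the chaperone role, PTGES held 88.1%, 88.6% and 88.7% of the summed TPM of the 4 remaining terminal synthases in S127A, against 0.0569%, 0.0724% and 0.0431% in WT. PTGDS held 1.44%, 0.854% and 1.02% in S127A, against 98.3%, 98.2% and 98.2% in WT. The sum was 269.6 ± 6.6 TPM in S127A and 1575 ± 41.1 TPM in WT, so the group with the high cyclooxygenase level had the lower sum of terminal synthases. With PTGES3 included, that gene held 54.8% ± 1.11 of the 5 synthases in S127A and 13.8% ± 0.403 in WT.

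**Figure D3:**
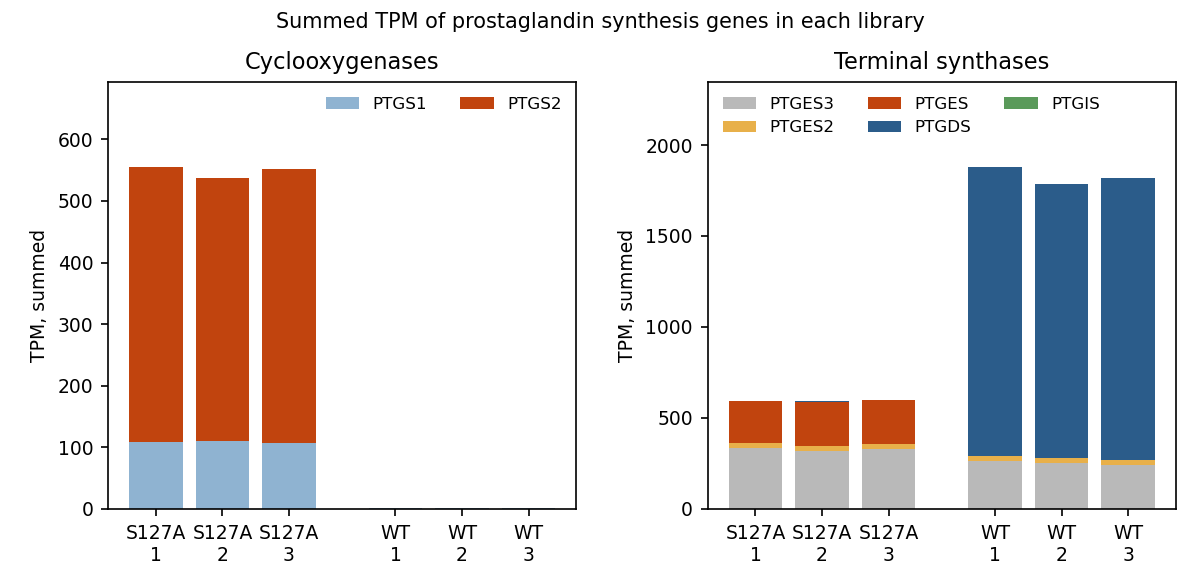
Summed TPM of the cyclooxygenases (left) and of the 5 terminal synthases (right) in each library, stacked by gene from 0. The cyclooxygenase bars of WT are too short to see, at about 2.14 TPM against 548 TPM in S127A, and PTGDS fills most of each WT bar at the right.

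The genes nearest to PTGS2 and PTGDS over the 6 libraries, by Euclidean distance of log2(TPM + 1), followed the same split between groups. For PTGS2 these were FOSL1, an AP-1 subunit, at a distance of 0.514, mesothelin (MSLN) at 0.684 and the adhesion molecule VCAM1 at 0.765. For PTGDS they were the melanosome proteins MLANA at 1.15 and PMEL at 1.94, and the apolipoprotein APOE at 2.59. APOE was at 8.02 ± 1.3 TPM in S127A and 875 ± 27.4 TPM in WT. With only 2 groups, such a distance mostly measures likeness of the group means.

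Around the members, 162 further symbols in 9 lists cover the steps before, beside and after prostaglandin synthesis. Some of these symbols are alternative names of the same gene, and the lists too were drawn up with results of the series known. The table lists 146 of the 162, and 108 of those averaged at least 1 TPM over the 6 libraries and entered the fit. In S127A 45 rose, 58 fell and 5 did not pass, which is 41.7% higher and 53.7% lower. Over all tested genes 90.0% passed by limma, 40.2% higher and 49.8% lower, so the counts lie near the background. The median log2 difference of the 108 was −0.176, against −0.116 over all tested genes.

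Genes of arachidonate release went both ways. Of 21 listed, 16 were tested, 7 rose and 9 fell, with a median log2 difference of −0.33. That is 43.8% higher and 56.2% lower, against 40.2% and 49.8% of all tested genes. PLA2G4A, the cytosolic phospholipase A2 that supplies arachidonate to the cyclooxygenases, rose to 91.62, 84.88 and 89.08 TPM in S127A, against 1.41, 1.56 and 0.82 TPM in WT (log2 change 5.32, SE 0.109, adjusted p = 3.39e-12). The secreted phospholipase PLA2G12A rose to 121 ± 1.9 TPM in S127A, against 37.7 ± 1.36 TPM in WT, and the lysosomal PLA2G15 to 19.3 ± 0.243 TPM, against 7.04 ± 0.272 TPM (log2 changes 1.66 and 1.34, adjusted p = 7.01e-12 and 9.53e-10). MGLL, the lipase that frees arachidonate from 2-arachidonoylglycerol, fell to 0.0333 ± 0.00577 TPM in S127A, against 6.62 ± 0.196 TPM in WT. LPCAT3, which puts arachidonate back into phospholipids, fell to 47.6 ± 1.45 TPM in S127A, against 121 ± 2.08 TPM in WT. The log2 changes were −2.88 and −1.32 (adjusted p = 1.33e-11 and 3.03e-11).

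Of 7 tested enzymes that make other prostanoids or modify and clear prostaglandins, 5 fell and 2 rose (median log2 difference −0.792). That is 71.4% lower, against 49.8% of all tested genes, on few genes and with no test of the difference. The count of higher genes was 4 with no filter on low values and 1 at a mean of at least 5 TPM. CBR1, a carbonyl reductase that acts on prostaglandin E2, fell to 0.573 ± 0.11 TPM in S127A, against 12 ± 0.78 TPM in WT (log2 change −3.05, adjusted p = 2.43e-11). Its relative CBR3 was listed at 0 in the 3 S127A libraries and stood at 17.27, 16.72 and 17.46 TPM in WT. PTGR1, a reductase that inactivates prostaglandins and leukotriene B4, stood at 5.36, 5.86 and 4.32 TPM in S127A and was listed at 0 in the 3 WT libraries. AKR1B1, a human symbol for an aldose reductase with prostaglandin F synthase activity, fell to 142 ± 1.35 TPM in S127A, against 241 ± 2.6 TPM in WT (adjusted p = 3.68e-10). The mouse gene behind that symbol is not named in the files. Thromboxane synthase TBXAS1 was at 0.163 ± 0.0503 TPM in S127A and 0.06 ± 0.01 TPM in WT, too low for a test.

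In transport, 2 of 3 tested genes rose and 1 fell, too few to read as a group. That is 66.7% higher and 33.3% lower, against 40.2% and 49.8% of all tested genes. The efflux pumps ABCC1 (86.8 ± 1.7 TPM in S127A, against 30.4 ± 0.736 TPM in WT) and ABCC4, which exports prostaglandin E2 (38.9 ± 0.254 TPM in S127A, against 24.4 ± 0.573 TPM in WT), rose by log2 changes of 1.49 and 0.65 (adjusted p = 1.64e-11 and 3.90e-08). SLCO3A1, an organic anion carrier, fell to 0.04 TPM in each S127A library, against 14.5 ± 0.427 TPM in WT (adjusted p = 7.82e-13). The uptake carrier SLCO2A1 was at 0.557 ± 0.0666 TPM in S127A and 0.13 ± 0.0361 TPM in WT and was not tested.

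The other receptors for prostanoids ranged in level. PTGER3 was listed at 0 in all 6 libraries, and PTGIR, the prostacyclin receptor, was at 0.717 ± 0.175 TPM in S127A and 0.357 ± 0.122 TPM in WT, below the filter. Of 10 listed genes, 3 were tested, 2 higher and 1 lower, too few to read as a group. PTGER1 was at 1.23, 1.71 and 2.02 TPM in S127A and 1.18, 0.69 and 1.36 TPM in WT, with overlapping groups, and its narrow call (log2 change 0.36, adjusted p = 0.0336) was lost in 5 of 17 alternatives, at adjusted p up to 0.135. PTGFRN, which is named as a negative regulator of the prostaglandin F receptor and is not itself a prostanoid receptor, rose to 32.2 ± 0.943 TPM in S127A, against 0.0767 ± 0.0208 TPM in WT (log2 change 4.95, adjusted p = 1.00e-13). The nuclear receptor PPARD fell to 28.2 ± 2.22 TPM in S127A, against 54.2 ± 1.36 TPM in WT (adjusted p = 3.11e-08).

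The cAMP relay through which PTGER2 and PTGER4 act was expressed in both groups and was split. Of 27 tested genes 12 rose, 14 fell and 1 did not pass, with a median log2 difference of −0.147. At 44.4% higher and 51.9% lower, the list lay near the 40.2% and 49.8% of all tested genes. GNAS, the stimulatory G protein subunit, fell to 603 ± 22.2 TPM in S127A, against 1188 ± 4.87 TPM in WT, and the adenylyl cyclase ADCY3 fell to 0.87 ± 0.156 TPM in S127A, against 34.7 ± 0.981 TPM in WT (log2 changes −0.98 and −4.26, adjusted p = 1.13e-10 and 7.60e-13). The protein kinase A regulatory subunit PRKAR1A fell to 153 ± 2.72 TPM in S127A, against 387 ± 8.57 TPM in WT. Among the phosphodiesterases that degrade cAMP, PDE4B fell to 0.02 ± 0.0173 TPM in S127A, against 13.7 ± 0.545 TPM in WT, and PDE8A to 0.0867 ± 0.0462 TPM, against 6.75 ± 0.606 TPM. PDE3B rose to 4.78 ± 0.238 TPM in S127A, against 0.00667 ± 0.0115 TPM in WT. The adjusted p of these 4 genes ran from 1.10e-12 for PDE4B and 6.36e-12 for PRKAR1A to 6.16e-11 for PDE3B and PDE8A. Named after their values were seen, the cyclase ADCY6 and the regulatory subunit PRKAR2B went the other way from ADCY3 and PRKAR1A. ADCY6 rose to 42.5 ± 0.329 TPM in S127A, against 15.1 ± 0.849 TPM in WT. PRKAR2B rose to 61.1 ± 2.66 TPM in S127A, against 23.7 ± 0.751 TPM in WT. The cyclases ADCY7 and ADCY9 fell, as ADCY3 did.

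Transcription factors known to act on PTGS2 were split, with 9 of 18 tested higher, 8 lower and 1 not passing. EGR1, which is also known to act on PTGES, rose to 152 ± 2.16 TPM in S127A, against 3.97 ± 0.0361 TPM in WT (log2 change 4.95, SE 0.0413, adjusted p = 1.19e-14). CEBPB and CEBPD, C/EBP factors induced in inflammation, rose to 88.8 ± 4.14 and 29.7 ± 1.6 TPM in S127A, against 21.7 ± 1.12 and 3.85 ± 0.226 TPM in WT (log2 changes 1.99 and 2.66, adjusted p = 1.70e-11 and 1.08e-11). The 2 NFAT factors named moved apart, as NFATC1 rose to 14 ± 0.583 TPM in S127A, against 1.96 ± 0.155 TPM in WT, and NFATC2 fell to 0.0833 ± 0.0651 TPM in S127A, against 20.6 ± 0.33 TPM in WT (adjusted p = 5.63e-11 and 5.54e-13). The PTGS2 window printed above held a C/EBP match and no EGR match.

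Of 16 tested proteins that bind AU-rich or other elements of mRNAs such as PTGS2, 10 fell, 5 rose and 1 did not pass (median log2 difference −0.466). That is 62.5% lower, against 49.8% of all tested genes, and the difference was not tested. ELAVL1, known to stabilise PTGS2 mRNA, fell to 35.0 ± 1.13 TPM in S127A, against 47.3 ± 0.996 TPM in WT (log2 change −0.42, adjusted p = 1.79e-06). ZFP36, known to promote its decay, rose to 25.5 ± 1.84 TPM in S127A, against 8.90 ± 0.36 TPM in WT, and its relative ZFP36L2 rose to 150.3 ± 2.21 TPM in S127A, against 33.6 ± 0.585 TPM in WT (log2 changes 1.42 and 2.13, adjusted p = 2.04e-09 and 4.02e-13). CELF2, known to bind PTGS2 mRNA and to limit its translation, fell to 22.9 ± 0.754 TPM in S127A, against 85.7 ± 4.59 TPM in WT (adjusted p = 1.91e-11). IGF2BP2 rose to 46.4 ± 1.53 TPM in S127A, against 10.1 ± 0.893 TPM in WT (log2 change 2.1). ZFP36L1, a further relative of ZFP36 that was named after its values were seen, went the other way from ZFP36. It fell to 39.8 ± 1.88 TPM in S127A, against 57.1 ± 3.66 TPM in WT (log2 change −0.51). The part of any of these proteins in the PTGS2 level was not tested.

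Of 14 tested chaperone partners of PTGES3, 9 fell, 3 rose and 2 did not pass. That is 64.3% lower, against 49.8% of all tested genes, with no test of the difference, and the median log2 difference of −0.204 lay near the −0.116 of all tested genes. HSP90AA1, the inducible HSP90, fell to 839 ± 29.6 TPM in S127A, against 1832 ± 59.1 TPM in WT, and the co-chaperones FKBP4 and AHSA1 fell to 199 ± 2.11 and 168 ± 6.32 TPM in S127A, against 579 ± 10.9 and 368 ± 6.4 TPM in WT (log2 changes −1.12, −1.53 and −1.12, adjusted p = 9.57e-11, 1.12e-12 and 6.99e-11). HSP90AB1, the constitutive form, fell little, to 2853 ± 23.0 TPM in S127A, against 3241 ± 113 TPM in WT (log2 change −0.18, adjusted p = 2.04e-04).

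In the lipoxygenase, leukotriene and epoxide branches, which share the same substrate, 6 of 19 listed genes were tested, 3 higher and 3 lower. The lipoxygenase ALOX5, named after its values were seen, was at 0.0567 ± 0.0289 TPM in S127A and 0.0533 ± 0.0462 TPM in WT. CYP2J2, the human symbol of an epoxygenase of arachidonate, fell to 3.27 ± 0.168 TPM in S127A, against 68.1 ± 3.89 TPM in WT (log2 change −4.02, adjusted p = 2.69e-13), and the mouse gene behind it is not named in the files either. The dipeptidase DPEP2, which converts leukotriene D4, rose to 24.8 ± 2.32 TPM in S127A, against 0.20 ± 0.0721 TPM in WT (adjusted p = 1.78e-12). The epoxide hydrolase EPHX1 fell to 129 ± 3.83 TPM in S127A, against 336 ± 6.11 TPM in WT, and LTA4H, which makes leukotriene B4, to 84.5 ± 2.71 TPM, against 133 ± 6.38 TPM (log2 changes −1.38 and −0.65, adjusted p = 8.37e-12 and 4.78e-08).

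**Figure D4:**
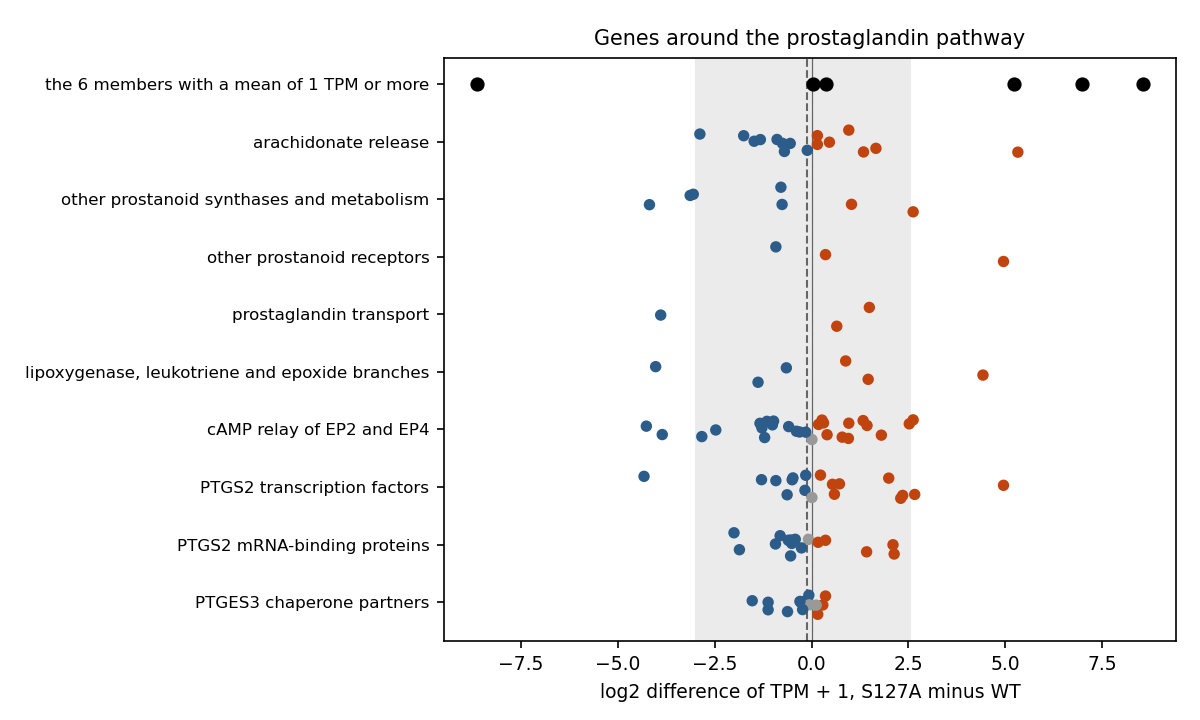
Log2 difference of TPM + 1, S127A minus WT, for the 6 members with a mean of 1 TPM or more (black, no test) and for the tested genes of each list around the pathway, with genes that rose in orange, genes that fell in blue and genes that did not pass in grey; vertical scatter has no meaning. The grey band spans the 5th to the 95th percentile of all tested genes (−2.99 to 2.53) and the dashed line marks their median (−0.116). Most genes of the lists lie inside the band. Of the 6 members 4 lie outside it, and since this contrast chose the set nothing is read from that count.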

How the data were processed

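The deposited table holds TPM per gene, which the authors computed per gene length and library total, with 1 column per library, per the file headers. Reads were placed on mm10, going by the submitters' processing notes. Aligner, quantifier, annotation and strandedness: not given in the sources used here. Columns sum to 830745 to 833332 TPM in S127A and 862949 to 864529 TPM in WT, and depth is unknown, so replicate spread is the error used. Genes stand under upper-case human-style symbols.

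Groups and replicate numbers came from sample titles. The fit took the 10348 genes averaging at least 1 TPM, on log2(TPM + 1), with limma 3.58.1 in R 4.3.3 (mean-variance trend, genotype as the only term, two-sided, Benjamini-Hochberg over all tested genes, threshold 0.05). The fit was tested on simulated data first. Summaries used Python 3.11.15, pandas 2.3.3 and numpy 2.4.6. Members and lists were chosen with earlier results of these data known. Named were all members, up to 5 tested genes per list with the smallest adjusted p, a panel of 16 genes, the edited gene ZBTB5, the markers, and the 3 nearest genes of PTGS2 and PTGDS; a selection is described. No count model was run, since TPM are not counts. Promoters are RefSeq windows (GRCm38.p6, found for 9 of the 10 members), and gene positions and 3′ UTRs are from GENCODE M21. Alternatives covered pseudocount, filter, scaling, model, replicate block and leaving out each library.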

Additional observations from a re-analysis of the deposited data

How the results depend on the processing

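The count of genes higher in S127A ran from 3652 to 4876 and that of lower genes from 4507 to 5717 over 18 alternatives, and the counts over all lists around the pathway together from 38 to 57 higher and 50 to 62 lower, each within 1.5 times the value reported. In single lists 10 counts moved further. Other prostanoid receptors had 1 higher gene, in place of 2, with a pseudocount of 0.1, a mean of at least 5 TPM, or without S127A replicate 2, S127A replicate 3 or WT replicate 2, and 4 higher and 2 lower with no filter. With no filter, other synthases and metabolism had 4 higher in place of 2, and the lipoxygenase, leukotriene and epoxide branches 6 in place of 3, since more genes were tested. At a mean of at least 5 TPM other synthases and metabolism had 1. Leaving out 1 library in turn gave 42 to 45 higher and 56 to 57 lower list genes. The replicate block gave 45 higher and 57 lower. Deviations of same-numbered libraries correlated at r = 0.117, 0.0174 and 0.0279 across 10348 genes, so the numbers were not taken as pairs. Members without overlap numbered 7 in place of 6 with TMM factors, quantile normalization and a common total, since PTGES2 then separated. Quantile normalization moved the median of all tested genes by 0.107, and relative to the median PTGES2 stood 0.11 and PTGES3 0.51 higher. The pseudocount set the size of large differences: with 0.1 and 5 in place of 1, PTGS2 was at 10.61 and 6.42 and PTGDS at −9.01 and −7.61. Of the named genes tested in the lists, PTGER1 alone lost its call, without S127A replicates 2 or 3 (adjusted p = 0.0848 and 0.135), without WT replicate 2 (0.135), with no filter (0.0674) and with a pseudocount of 0.1 (0.055). The cause was not tested. Unknown depth leaves values under 1 TPM, the receptors among them, without a counting error.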
